A study of Mus musculus with 4 samples.

Results

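The 34 genes described here encode the enzymes, carriers and regulators of fatty acid beta-oxidation, and they were taken by symbol from a table of 49671 mouse genes. All 34 symbols were found once each, and 21 act in mitochondrial steps, 6 in peroxisomal steps and 7 outside both (4 acyl-CoA synthetases, Cpt1c, Ppara and Ppard). The libraries are 4 bulk RNA-seq samples of basal epithelial cells from the ventral lobe of the prostate of male mice, 2 from gland tips and 2 from ducts. Tissue of 20 mice was divided by chopping into the tips and the ducts of the glands, and basal cells were sorted as high for EpCAM and for CD49f after removal of cells with CD45, CD31 or CD140a. All groups share this sort. No strain, allele or treatment was given for any group in the labels used here, and the age is day 13 in the titles but days 10 to 12 in the age field. The 2 libraries of a group are not stated to come from separate animals, so the spread between them may be technical.

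Beta-oxidation shortens fatty acids, held as thioesters of coenzyme A, by repeated rounds of dehydrogenation, hydration, a further dehydrogenation and thiolytic cleavage. Mitochondria oxidise long, medium and short chains, which enter through the carnitine shuttle and pass electrons to the respiratory chain, whereas peroxisomes start on very long and branched chains and pass electrons to oxygen. Nuclear receptors of the PPAR family, paired with retinoid X receptors, switch on many of these genes in liver, heart and muscle.

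Levels are given in CPM (reads per 1000000 reads of a library), with tip 1 and tip 2 named before duct 1 and duct 2. The recovered depth was 1439004 and 1742531 reads in tip and 1568194 and 1517982 reads in duct, so 1 read was worth 0.574 to 0.695 CPM. Differences are on the scale of log2(CPM + 1), tip minus duct, with the standard error (SE) of the limma fit, n = 2 in each group. The group of genes was put forward with the tip and duct values of these libraries in view, so tip against duct is a description and no p-value is given for a member. Over the whole table limma called 0 of 17865 genes tested (0% called) at an adjusted p of 0.05, with 1326 genes (7.42%) at an unadjusted p under 0.05. edgeR called 0 (1058 unadjusted) and DESeq2 called 2 (416 unadjusted). The median gene lay 0.20 above zero with the deposited scaling and 0.04 with TMM scaling, which resets library totals on the bulk of genes, so member values are read against that shift.

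The libraries themselves differed in makeup. The 6 basal markers were present in all 4, with sums of 8824 and 8126 CPM (tips) and 12080 and 5083 CPM (ducts), Dst being the most abundant. Their median difference was 0.58 (0.39 with TMM scaling), beside 0.56 (0.38) for the 34 genes. Of the 6, 4 were positive (beside 63.1% of all genes) and 2 were negative. In 2 both tips lay above both ducts (beside 28.5%), and 0 lay below (beside 11.1%). These 2 were Trp63, a basal transcription factor, at 829.8 and 281 against 263 and 136 CPM, and Krt5 at 650.5 and 513 against 490.4 and 148 CPM. Krt5 overlapped with TMM scaling, which left 1 above and 0 below (beside 21.0% and 17.7%). Fibroblast markers (21 genes) summed to 3815 and 4809 CPM (tips) and to 2569 and 6645 CPM (ducts), and the luminal list (9 genes) to 1458 and 1446 against 2316 and 1103 CPM. The median difference was 0.60 for the luminal list (0.42 with TMM scaling) and 0.20 for the fibroblast list (0.03). Smooth muscle markers (7 genes) summed to 1557 and 2620 against 577 and 2386 CPM, with a median difference of 0.97 (0.78 with TMM scaling). Of the 7, 5 were positive (beside 63.1% of all genes). Tagln alone lay above both ducts in both tips (beside 28.5%), and 1 marker lay below (beside 11.1%). With TMM scaling 0 lay above and 1 below (beside 21.0% and 17.7%). The pancreatic genes Ins1, Ins2 and Iapp were read in duct 2 only. Duct 1 and duct 2 thus stood farther apart than the tips in all 3 sums of basal, luminal and fibroblast markers.

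Genes of the oxidation steps were mostly higher in tip. The 21 mitochondrial members summed to 909.5 and 780.4 CPM in the tip libraries and to 537.45 and 563.1 CPM in the duct libraries, and the 6 peroxisomal members to 162.1 and 126.95 CPM against 70.9 and 87.8 CPM. Both tip sums lay above both duct sums, by 1.54-fold for the mitochondrial and 1.82-fold for the peroxisomal means. The sum of the remaining 7 members was lower in both tips, with 378.2 and 366.85 CPM (tips) and 599.6 and 611.55 CPM (ducts), of which Acsl4 alone made up 267.85 and 422.95 CPM in the ducts. Of these 7 genes Acsl4 was the 1 that was lower in both tip libraries (beside 11.1% of all genes). Acsl1 and Ppara were the 2 higher in both (beside 28.5%). With TMM scaling 3 were lower and 1 was higher (beside 17.7% and 21.0%). In sorted bulk samples fewer cells with a transcript and less of it per cell cannot be told apart.

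**Figure D1:**
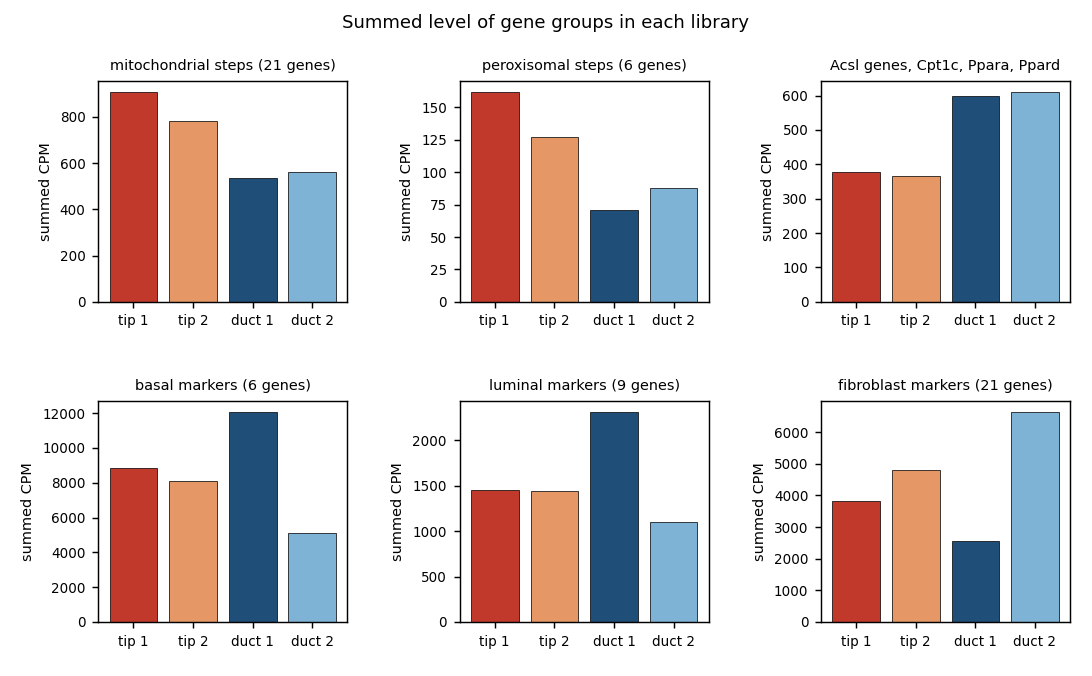
Summed CPM (linear axes from 0) in each of the 4 libraries for the mitochondrial, peroxisomal and remaining members and for basal, luminal and fibroblast markers; each bar is 1 library. The mitochondrial sum is 909.5 and 780.4 CPM for the tips and 537.45 and 563.1 CPM for the ducts, while fibroblast markers run from 2569 CPM in duct 1 to 6645 CPM in duct 2.

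Of the 34 members, 30 had a positive log2 difference, beside 63.1% of all genes tested. In 21 members both tip libraries lay above both duct libraries, beside 28.5% of all genes, and in 1 member both lay below, beside 11.1%. With TMM scaling these counts were 19 and 3, beside 21.0% and 17.7%, and 29 members were positive, beside 52.4%. The median difference was 0.56 over all members, 0.54 over the mitochondrial and 0.81 over the peroxisomal ones, and 0.38, 0.37 and 0.65 with TMM scaling. At least 2-fold apart, with the lower tip library at 2 or more times the higher duct library, were 4 members, Decr1, Decr2, Echs1 and Ppara, beside 3.66% of all genes, and 0 were that far below, beside 1.32%; with TMM scaling these counts were again 4 and 0, beside 2.33% and 2.0%. Median-ratio scaling gave 17 above and 4 below (19.3% and 19.1% of all genes), and quantile scaling 16 and 3 (19.5% and 16.6%). These counts are descriptions, because the same contrast was in view when the genes were put together.

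**Figure D2:**
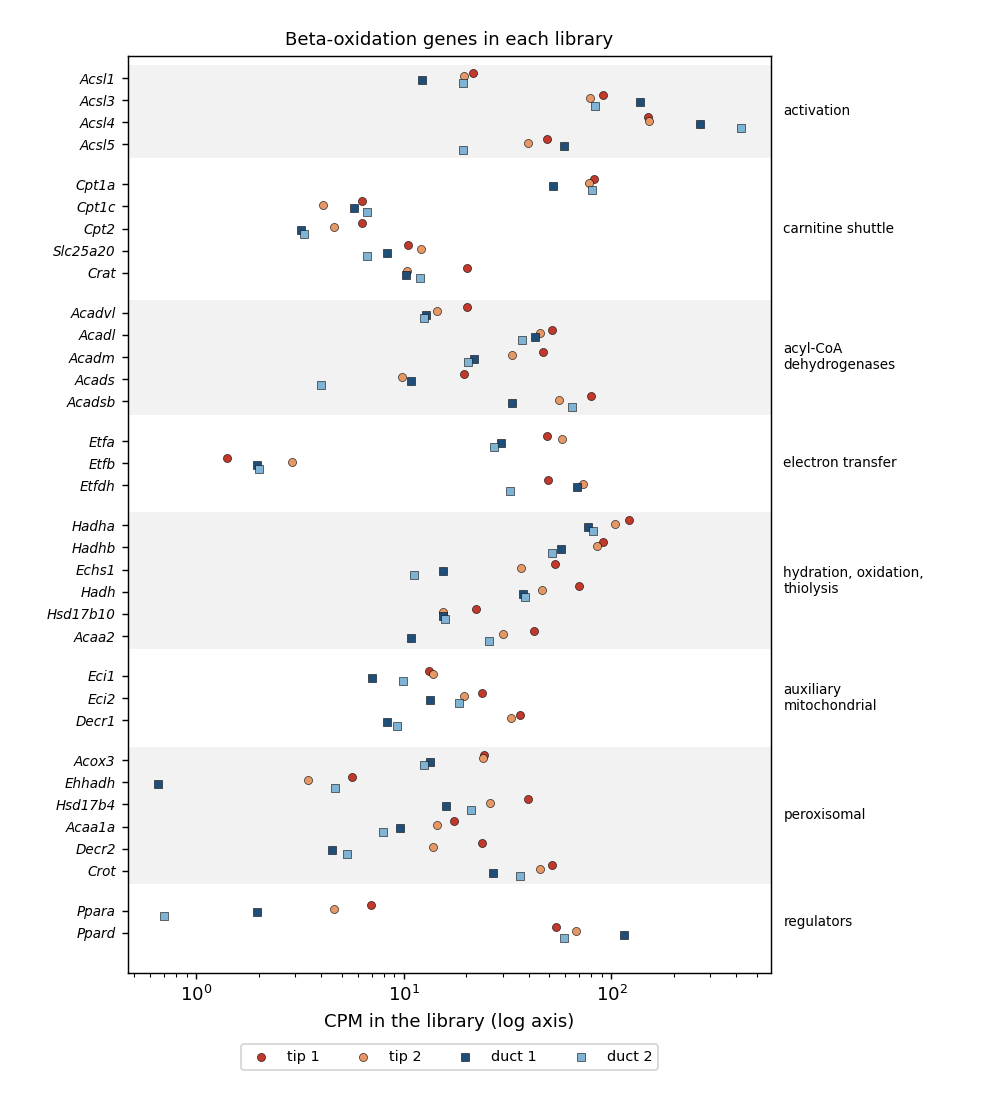
CPM of each of the 34 genes in each library (log axis), grouped by role, with circles for tip and squares for duct libraries. Decr1, Echs1 and Decr2 have both circles well to the right of both squares, and Acsl4 has both squares to the right (268 and 423 CPM against 149 and 152 CPM).

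Activation is the step that loads a free fatty acid onto coenzyme A, and its 4 synthetase genes did not move together. Acsl4, whose enzyme prefers arachidonic acid and other polyunsaturated chains, measured 149 and 152 CPM in the tip libraries beside 268 and 423 CPM in the duct libraries. Both duct libraries were above both tip libraries, by 1.76-fold at the closest pair, and the log2 difference was -1.15 ± 0.30 (-1.34 with TMM scaling). The tip libraries nearly coincided, while duct 2 stood well above duct 1. Acsl3, a synthetase of the endoplasmic reticulum and lipid droplets, measured 91.05 and 79.2 CPM for tip 1 and tip 2, with 138 and 83.7 CPM for duct 1 and duct 2, so that duct 1 alone stood high and the groups overlapped (-0.34 ± 0.33); with TMM scaling both tips lay below both ducts (-0.52). Acsl5 measured 48.65 and 39.6 CPM (tips) and 59.35 and 19.15 CPM (ducts), with the highest and the lowest value both in duct. Acsl1, the isoform most tied to oxidation in muscle and fat, measured 21.55 and 19.55 CPM in the tip libraries beside 12.15 and 19.15 CPM in the duct libraries; tip 2 and duct 2 were nearly equal, and with TMM scaling the groups overlapped.

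Per kilobase of exon, the order of the 34 genes changed between libraries. Acsl4 was the highest in both ducts, at 49.6 and 78.3 CPM per kilobase, but in tip 1 Acaa2 (27.97) and in tip 2 Etfa (31.6) stood above it (27.65 and 28.1). At the low end on the same scale were Cpt1c in both tips (1.12 and 0.723), Ehhadh in duct 1 (0.218) and Ppara in duct 2 (0.182). Exon lengths were taken from GENCODE vM21, which need not be the annotation used for counting. Each is the union of all annotated exons of a gene and can exceed the length of its main transcript, so this order depends on the annotation.

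The carnitine shuttle carries activated long chains across the mitochondrial membranes. Cpt1a, its rate-controlling outer-membrane enzyme, measured 82.7 and 77.5 CPM for tip 1 and tip 2, with 52.3 and 80.4 CPM for duct 1 and duct 2. Duct 2 lay between the tip values and only duct 1 was lower, so the difference of 0.30 ± 0.33 came from 1 library; without duct 1 it was -0.01. Slc25a20, the carnitine-acylcarnitine exchanger of the inner membrane, measured 10.45 and 12.1 CPM (tips) and 8.30 and 6.60 CPM (ducts), with both tip libraries higher (0.54 ± 0.49). Cpt2, which rebuilds the acyl-CoA inside, rested on 9 and 8 reads in tip and 5 and 5 in duct (6.30 and 4.60 against 3.2 and 3.30 CPM), and the ratio of pooled reads was 1.65 (95% interval for counting error, 0.713 to 4.03). Crat, the carnitine acetyltransferase, reached 20.2 CPM in tip 1 and 10.25 to 11.9 CPM in the other 3 libraries. Cpt1c, a brain-enriched relative of Cpt1a in the endoplasmic reticulum, measured 6.30 and 4.05 CPM in the tip libraries beside 5.75 and 6.60 CPM in the duct libraries, 7 to 10 reads in each library; the groups overlapped, and with TMM scaling both tips lay below both ducts (-0.41).

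Acyl-CoA dehydrogenases take out the opening pair of hydrogens, each with its own range of chain lengths. Acadm, for medium chains, measured 46.6 and 33.3 CPM for tip 1 and tip 2, with 21.7 and 20.45 CPM for duct 1 and duct 2. Both tip libraries were above both duct libraries, which were close to each other, and the difference was 0.87 ± 0.37 (0.69 with TMM scaling). Acadvl, for very long chains, measured 20.2 and 14.35 CPM (tips) and 12.8 and 12.55 CPM (ducts) and Acadl, for long chains, 51.45 and 45.35 CPM in the tip libraries beside 42.75 and 36.9 CPM in the duct libraries; in both genes the groups did not overlap but the nearest tip and duct values were close. Acads, for short chains, measured 19.5 and 9.80 CPM for tip 1 and tip 2, with 10.85 and 4 CPM for duct 1 and duct 2. Duct 1 lay above tip 2, so the groups overlapped despite a difference of 0.95 ± 0.60, and without duct 2 it was 0.33. Acadsb, which acts on short branched chains from isoleucine, measured 79.95 and 55.7 CPM (tips) and 33.2 and 64.6 CPM (ducts), again with overlap.

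Electrons from these enzymes pass through the electron transfer flavoprotein, a heterodimer of the Etfa and Etfb products, to the Etfdh enzyme in the inner membrane. Etfa measured 48.65 and 58 CPM in the tip libraries beside 29.35 and 27.05 CPM in the duct libraries, with both tip libraries at least 1.66 times the higher duct library (0.89 ± 0.34). Etfb, its partner, had only 2 and 5 reads in tip and 3 and 3 reads in duct (1.40 and 2.90 against 1.95 and 2 CPM), so no difference could be detected at this depth. The counts of the 2 genes were far apart per kilobase, at 22.2 for Etfa and 1.77 CPM per kilobase for Etfb, each over its full exon length. Of the 1164 exonic bases of Etfb, 678 overlap other annotated genes on the same strand (Gm45233 and Mir7051), both listed at 0 in the 4 libraries, and the part of this overlap in the low count was not tested. Etfdh measured 49.35 and 72.9 CPM for tip 1 and tip 2, with 68.25 and 32.3 CPM for duct 1 and duct 2, where duct 2 was the lowest library and the other 3 were mixed.

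Of the 6 genes for the later reactions of each round, 5 were higher in both tip libraries, beside 28.5% of all genes. Echs1, the short-chain enoyl-CoA hydratase, measured 53.55 and 36.75 CPM (tips) and 15.35 and 11.2 CPM (ducts). Its lower tip value was 2.39 times its higher duct value, and the difference was 1.68 ± 0.41 (1.51 with TMM scaling), from 141 reads in tip and 41 in duct. Hadha and Hadhb encode the alpha and beta subunits of the mitochondrial trifunctional protein, which carries out the last 3 reactions of each round on long chains. Hadha measured 121 and 104 CPM in the tip libraries beside 77.2 and 81.05 CPM in the duct libraries and Hadhb 91.05 and 84.95 CPM for tip 1 and tip 2, with 57.4 and 51.4 CPM for duct 1 and duct 2. In both, the tip libraries were higher than the duct libraries and the libraries of a group were close, with differences of 0.50 ± 0.28 and 0.69 ± 0.30. Per kilobase of all annotated exons the 2 genes matched closely, at 10.97 for Hadha and 10.8 for Hadhb, while their mean levels were 95.8 and 71.2 CPM.

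Hadh, the short-chain 3-hydroxyacyl-CoA dehydrogenase, measured 69.5 and 46.5 CPM (tips) and 37.65 and 38.25 CPM (ducts), with both tip libraries higher (0.57 ± 0.35). Acaa2, a thiolase of the mitochondrial matrix, measured 42.4 and 29.85 CPM in the tip libraries beside 10.85 and 25.7 CPM in the duct libraries. Duct 2 came near tip 2 while duct 1 was far lower, so its difference ran from 0.45 without duct 1 to 1.63 without duct 2, around 1.04 ± 0.48 in all libraries. Hsd17b10, a hydroxyacyl-CoA dehydrogenase with a further role in mitochondrial tRNA processing, was high in tip 1 only, at 22.25 CPM, and 15.35 to 15.85 CPM elsewhere.

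Hadha (chr5:30118304-30155162, minus strand) and Hadhb (chr5:30155248-30184593, plus strand) start back to back on mouse build GRCm38. The 85 bases that lie between their annotated exons, chr5:30155163-30155247, are shown because the 2 subunits had like levels per kilobase and like differences. All sequence is from RefSeq promoter windows (GRCm38.p6). Below them stand the stretches outside annotated exons for Echs1 (chr7:140116477-140116671, minus strand) and Acadm (chr3:153944644-153944893, minus strand), whose tip and duct values did not overlap. Each is written 5′ to 3′ on the strand of the gene, and on the plus strand for the shared stretch. Capitals mark GGGCGG, the GC box, and AGGTCA, the hexamer bound by many nuclear receptors, in either orientation.
Hadha-Hadhb: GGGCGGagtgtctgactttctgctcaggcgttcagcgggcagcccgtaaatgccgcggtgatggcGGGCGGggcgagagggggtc
Echs1: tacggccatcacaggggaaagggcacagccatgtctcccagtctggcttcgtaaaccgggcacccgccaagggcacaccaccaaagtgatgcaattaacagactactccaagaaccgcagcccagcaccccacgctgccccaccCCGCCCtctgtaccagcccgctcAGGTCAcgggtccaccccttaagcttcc
Acadm: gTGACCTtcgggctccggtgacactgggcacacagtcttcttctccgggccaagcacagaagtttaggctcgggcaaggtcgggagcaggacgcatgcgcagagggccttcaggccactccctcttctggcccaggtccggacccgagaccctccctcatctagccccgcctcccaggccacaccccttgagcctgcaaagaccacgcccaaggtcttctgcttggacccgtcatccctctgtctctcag
The shared stretch holds 2 GC boxes. In Echs1 the hexamer AGGTCA ends 78 bases before the RefSeq start, and in Acadm it is read as TGACCT, 244 bases before the start.

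Promoter windows of 250 bases before to 50 after the start were given for 30 of the 34 genes, and 5 motifs were searched on both strands. GGGCGG was present in 26 of the 30 (86.7%), beside 62.1% of 11268 genes tested here that have a window and 35.9% of all 27025 genes with one. AGGTCA was present in 5 of 30 (16.7%, in Acadm, Acadvl, Cpt1a, Cpt1c and Echs1), beside 12.4% and 16%. The palindromic NRF1 element was present in Etfdh and Ppara (6.67%), beside 1.9% and 0.977%. The direct repeat that PPAR dimers bind (2 copies of AGGTCA with any 1 base between), and TCAAGGTCA, the element of estrogen-related receptors, both of which contain AGGTCA, were in 0 of 30, beside 0.0355% and 0.222% of tested genes and 0.0444% and 0.407% of all. These are counts of letters in the windows.

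Unsaturated chains need auxiliary enzymes before they can complete the cycle, and the 2 dienoyl-CoA reductases, 1 in each organelle, stood out in size. Decr1, the mitochondrial reductase, measured 36.15 and 32.75 CPM for tip 1 and tip 2, with 8.30 and 9.25 CPM for duct 1 and duct 2. The tip values were close to each other, as were the duct values, and the nearest pair was 3.54-fold apart. Its difference of 1.86 ± 0.41 (1.68 with TMM scaling) rested on 109 reads in tip and 27 in duct, whose depth-adjusted ratio was 3.92 (95% interval for counting error, 2.55 to 6.21). Decr1 lies at chr4:15917240-15945507 on the minus strand. Eci1, an enoyl-CoA isomerase of mitochondria, measured 13.25 and 13.8 CPM (tips) and 7.05 and 9.90 CPM (ducts) (0.63 ± 0.47), and Eci2, an isomerase found in peroxisomes and mitochondria, 23.65 and 19.55 CPM in the tip libraries beside 13.4 and 18.45 CPM in the duct libraries, where the groups overlapped with TMM scaling.

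In the peroxisomal arm all 6 members had a positive difference (beside 63.1% of all genes) and 5 were higher in both tip libraries (beside 28.5%). Decr2 (chr17:26081208-26090337, minus strand), the peroxisomal counterpart of Decr1, measured 23.65 and 13.8 CPM for tip 1 and tip 2, with 4.50 and 5.30 CPM for duct 1 and duct 2. Both tip libraries were at least 2.60 times the higher duct library (1.70 ± 0.51, 1.54 with TMM scaling), resting on 58 reads in tip and 15 in duct. Acox3, an oxidase that starts the breakdown of branched chains, measured 24.35 and 24.15 CPM (tips) and 13.4 and 12.55 CPM (ducts), with the tip values almost equal and the duct values almost equal (0.85 ± 0.40). Hsd17b4, the D-bifunctional protein, measured 39.65 and 25.85 CPM in the tip libraries beside 15.95 and 21.1 CPM in the duct libraries, and Acaa1a, the peroxisomal thiolase, 17.4 and 14.35 CPM for tip 1 and tip 2, with 9.60 and 7.95 CPM for duct 1 and duct 2. Crot, which hands shortened chains to carnitine for export, measured 51.45 and 45.35 CPM (tips) and 26.8 and 36.25 CPM (ducts). In these 3 genes both tip libraries were higher and tip 1 was the highest library (0.77 ± 0.41, 0.79 ± 0.46 and 0.62 ± 0.35). Ehhadh, the L-bifunctional enzyme, had 8 and 6 reads in tip and 1 and 7 in duct (5.60 and 3.45 against 0.65 and 4.65 CPM), so its difference of 0.83 ± 0.74 rested on duct 1 and was -0.06 without it.

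The 2 PPAR genes pointed in opposite directions. Ppara, the receptor best known for inducing beta-oxidation in liver, measured 6.95 and 4.60 CPM in the tip libraries beside 1.95 and 0.7 CPM in the duct libraries. Both tip libraries were higher, but the counts were 10 and 8 reads against 3 and 1, and the ratio of pooled reads was 4.37 (95% interval for counting error, 1.44 to 17.7). Its difference was 1.58 ± 0.64, and 0.88 with a pseudocount of 4 CPM. Ppard, the more widely expressed family member, measured 54.25 and 67.75 CPM for tip 1 and tip 2, with 115 and 59.3 CPM for duct 1 and duct 2, with duct 1 high and the other 3 libraries close (-0.44 ± 0.38, and 0.03 without duct 1). Ppard averaged 9.85 CPM per kilobase against 0.925 for Ppara.

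**Figure D3:**
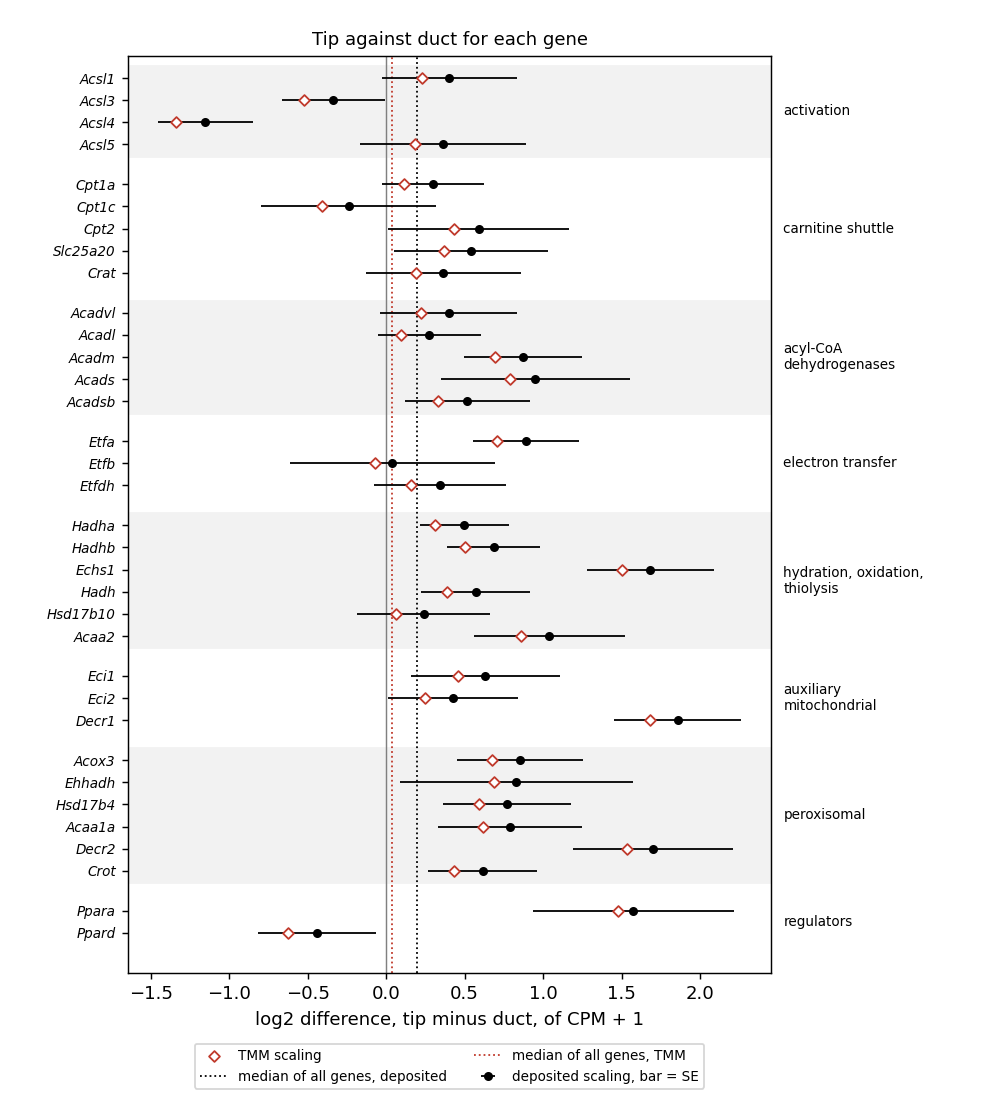
Log2 difference (tip minus duct, of CPM + 1) for each of the 34 genes with the deposited scaling (filled circles, bars are SE, n = 2 per group) and with TMM scaling (open diamonds); dotted lines are the medians of all genes tested, 0.20 and 0.04. Decr1 (1.86), Decr2 (1.70), Echs1 (1.68) and Ppara (1.58) lie farthest right and Acsl4 (-1.15) farthest left.

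Within a group the libraries differed by amounts close to many of these differences. The median absolute log2 gap between tip 1 and tip 2 was 0.35 over the 34 genes, and that between duct 1 and duct 2 was 0.34, beside a median absolute tip-duct difference of 0.58. Over all genes tested the same 3 values were 0.45, 0.57 and 0.44. Tip 1 was the higher tip library for the mitochondrial (median gap 0.26) and peroxisomal members (0.42), beside 0.10 for all genes. Between the ducts the mitochondrial members were nearly level (median gap of duct 1 minus duct 2 of -0.02), whereas fibroblast markers were lower in duct 1 by 3.41 at the median on the same log2 scale.

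Markers of adipocytes and of muscle were read at differing levels. Among 8 adipocyte markers Lep was at 0 in all 4 libraries, Adipoq at 0 in 3 and 1.95 CPM in duct 1, and Plin1 at 0 in 3 and 0.65 CPM in duct 1. The list summed to 8.4 and 6.35 CPM (tips) and 21.9 and 20.6 CPM (ducts), of which Fabp4 gave 2.8 and 2.9 CPM (tips) and 9.6 and 16.5 CPM (ducts). The 6 muscle markers summed to 51.5 and 72.4 CPM (tips) and 34.55 and 58.75 CPM (ducts), of which Acta1 gave 36.85 and 53.4 CPM (tips) and 6.40 and 44.15 CPM (ducts), while Ckm, Mb and Myh1 ranged from 0 to 2.60 CPM. Luminal markers moved in part with the members: 4 of 9 (44.4%, beside 28.5% of all genes) were higher in both tip libraries and 0 lower (beside 11.1%). With TMM scaling these counts were again 4 and 0 (beside 21.0% and 17.7%). Among them was Hoxb13, a homeobox transcription factor of the prostate, at 48.65 and 18.4 against 11.5 and 7.25 CPM, while Krt8 measured 226 and 322 against 721 and 246 CPM. The fibroblast sum overlapped between the groups, and S100a4 was at 0 in all 4. Of 20 tested fibroblast markers 3 (15%, beside 28.5%) were higher in both tip libraries and 0 lower (beside 11.1%). With TMM scaling the fibroblast counts were 1 and 0 (beside 21.0% and 17.7%). Immune markers summed to 202.35 and 107.45 CPM (tips) and 92 and 110.2 CPM (ducts). The part of basal, luminal, smooth muscle, immune and other stromal RNA in the member values was not tested by cell type. With the mean fibroblast level as a covariate the member median was 0.57. It was 0.61 without duct 2, the library richest in fibroblast markers, 0.46 without duct 1, 0.44 without tip 1 and 0.72 without tip 2. Fibroblast levels overlapped between the groups, so the covariate could move this median little, and the stromal part was not tested by it.

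Genes of the wider pathway, from 7 lists of 87 other genes, gave 77 that could be tested. In both tip libraries 28 of the 77 lay higher (36.4%, beside 28.5% of all genes) and 7 lay lower (beside 11.1%). With TMM scaling 25 lay higher (32.5%, beside 21.0%) and 8 lay lower (beside 17.7%). A positive difference was found in 60 (77.9%, beside 63.1%), and 0 passed the limma test. Their median difference was 0.48, or 0.29 with TMM scaling, beside 0.20 and 0.04 for all genes.

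Among 13 tested genes of other mitochondrial steps, 6 (46.2%, beside 28.5% of all genes) lay higher in both tip libraries and 0 (beside 11.1%) lay lower. Acad9, which is also an assembly factor of complex I, averaged 86.75 ± 27.7 against 28.5 ± 1.17 CPM (SD, n = 2 each), and Acot13, a thioesterase, 18.3 ± 0.707 against 4.90 ± 0.566 CPM. Acad11 (50.9 against 21.4 CPM), Ivd of leucine breakdown (26.6 against 9.425 CPM), Acat1 (46.2 against 35.7 CPM) and Acad12 (2.625 against 1 CPM) separated as well. Acad12 rested on only 5 and 3 reads in tip and 2 and 1 in duct. Acss1, the most abundant gene of the list beside Acad9, overlapped at 56.3 and 74.65 against 65.7 and 30.35 CPM, and Cpt1b, the muscle form of Cpt1a, had 0 to 2 CPM.

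The propionyl-CoA and ketone list had 5 of 8 genes (62.5%, beside 28.5% of all genes) higher in both tip libraries and 0 lower (beside 11.1%). With TMM scaling 5 were higher and 1, Bdh1, was lower, beside 21.0% and 17.7%. They include the consecutive enzymes that turn propionyl-CoA, left over from odd chains and branched amino acids, into succinyl-CoA. Pcca averaged 16.75 ± 5.80 against 7.15 ± 0.141 CPM, Pccb 47.7 ± 1.56 against 24.3 ± 1.73 CPM, Mcee 12.0 ± 0.742 against 1.975 ± 0.884 CPM and Mut 30.4 ± 1.70 against 11.65 ± 2.47 CPM (SD, n = 2 each). Oxct1, which starts ketone body use, averaged 73.15 ± 2.76 against 38.3 ± 0.0354 CPM, with its duct libraries almost equal.

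For peroxisomes, 5 of 11 tested genes of oxidation and import (45.5%, beside 28.5% of all genes) were higher in both tip libraries and 0 lower (beside 11.1%): Scp2 (44.4 against 26.5 CPM), Phyh of phytanic acid breakdown (36.35 against 17.2 CPM), Cat, the catalase gene (46.3 against 26.05 CPM), Abcd4 (9.125 against 5.575 CPM) and Pecr (6.475 against 2.95 CPM). With TMM scaling Abcd4 overlapped and 4 were higher, beside 21.0%. The importer Abcd3 overlapped at 82.7 and 102 against 126 and 49.45 CPM. Of 15 biogenesis genes 6 (40.0%, beside 28.5%) were higher and 2 lower (beside 11.1%), and 5 and 2 with TMM scaling (beside 21.0% and 17.7%). Pex19 averaged 36.7 against 21.1 CPM, Pex2 19.6 against 10.4 CPM, and Pex7 26.55 against 16.2 CPM. Pex26 measured 9.05 and 2.90 against 2.60 and 2.65 CPM, so tip 1 alone stood well above the rest, and it overlapped with TMM scaling. Pex11a had 3 and 5 reads in tip and 0 in both ducts. Pex5, the import receptor, was lower in tip (26.2 against 41.6 CPM).

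Uptake, storage and control genes were mixed. Of 8 tested uptake genes 1 was higher in both tip libraries (beside 28.5%), the transporter Slc27a1 (152 against 91.95 CPM), and 2 were lower (beside 11.1%), Cd36 and Fabp4, both also endothelial and adipocyte genes. Cd36 measured 4.90 and 4.05 against 5.15 and 28.35 CPM, so duct 2 alone stood apart, and Fabp4 averaged 2.85 against 13.05 CPM. Slc27a4, another transporter, overlapped at 24.35 and 14.35 against 17.25 and 13.85 CPM. Of 12 tested control genes 3 (25%, beside 28.5% of all genes) were higher in both tip libraries and 2 were lower (beside 11.1%). With TMM scaling these counts were again 3 and 2 (beside 21.0% and 17.7%). The higher ones were Rxra, a partner of the PPARs, at 81.95 ± 35.5 against 32.0 ± 11.6 CPM (SD, n = 2 each), Esrra (6.075 against 2.625 CPM) and Ucp2 (188 against 137 CPM). Pprc1, a coactivator of the PGC-1 family, was lower (73.1 against 163 CPM), as was Pparg (1.575 against 2.625 CPM). The PGC-1 alpha gene Ppargc1a measured 181 and 135 against 142 and 57.35 CPM, and the corepressor Nrip1, the most abundant gene of that list, 621 and 518 against 1074.5 and 389 CPM, both with overlap. In the malonyl-CoA and lipolysis list of 10, 2 genes (20%, beside 28.5%) were higher in both tip libraries and 1 was lower (beside 11.1%). Acacb (12.3 against 5.525 CPM) and Pnpla2 (22.3 against 19.5 CPM, overlapping with TMM scaling) were the higher genes, and Lipe, hormone-sensitive lipase, the lower (5.45 against 13.25 CPM). Acaca measured 57.7 and 80.35 against 65.7 and 64.6 CPM. The PPAR-responsive gene Pdk4 measured 79.25 and 94.15 against 159 and 61.3 CPM and Angptl4 6.95 and 4.60 against 1.95 and 27.7 CPM, with the groups overlapping in both.

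**Figure D4:**
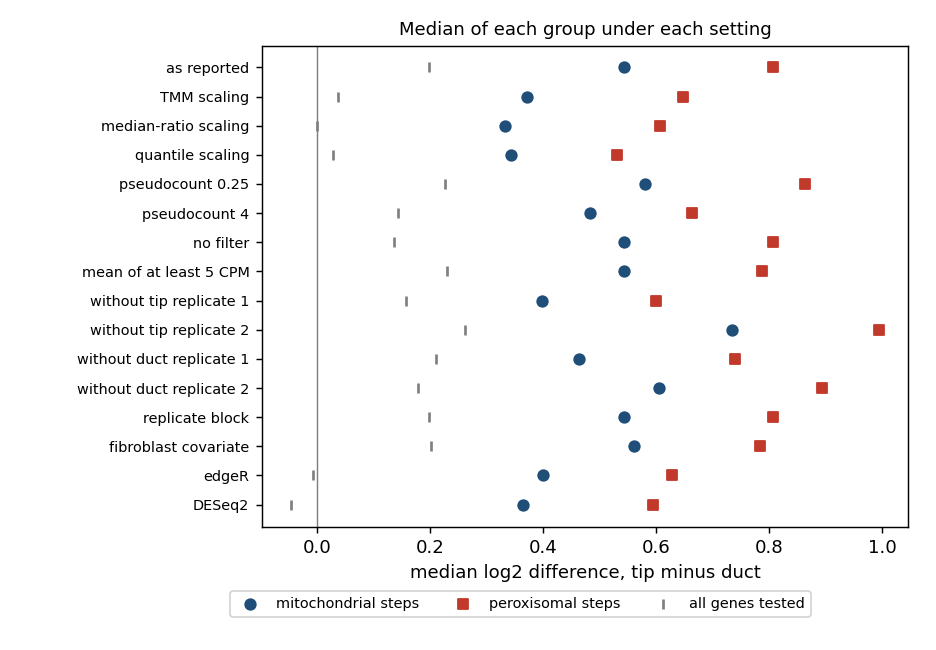
Median log2 difference (tip minus duct) of the 21 mitochondrial members, the 6 peroxisomal members and all genes tested, as reported and under each of 15 alternatives, 1 per line. The peroxisomal median runs from 0.53 to 0.99 and the mitochondrial median from 0.33 to 0.73, each to the right of the median of all genes on its line.

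Without a known strand setting, reads of a gene and of a partner on the opposite strand cannot be told apart. Among the genes described, Acsl1, Acsl5, Cpt1c, Crat, Acadvl, Etfdh, Hadha, Echs1, Eci2, Acox3, Acaa1a and Crot have exons that overlap annotated exons on the other strand. The overlap is 1151 bases for Acadvl, 142 for Echs1 and 75 for Hadha, and Decr1, Decr2, Acsl4 and Hadhb have none.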

How the data were processed

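The authors' deposited signal, in the unit found from the values, holds gene counts brought to 20000000 reads per library and rounded up, in 1 table of 49671 genes and 4 libraries. Per the submitters' processing notes, STAR and HTSeq were used with mouse build GRCm38 (mm10). Their versions, the annotation and the strand setting: not given in the sources used here. Groups come from the titles, since the cell type field names tip for all 4 libraries. Values were divided by 20 to give CPM. Whole reads, within 0.1 read, were recovered for 100% of values, and scaling them again gave back at least 99.9% exactly. One table-wide limma 3.58.1 fit (R 4.3.3, trend and robust moderation) was run on log2(CPM + 1) for 17865 genes averaging 1 CPM or more, Benjamini-Hochberg adjusted, 2-sided. All 34 members passed this filter. edgeR 4.0.16 and DESeq2 1.42.0 were run on recovered reads. Members and lists were chosen with earlier results of these data known. By the rule for named genes, library values are printed for members whose groups do not overlap and that average at least 5 CPM and for the most abundant member of each role, with members under 5 CPM as a range; of the other lists, non-overlapping genes and the 2 most abundant are named, except some that are not reported here. Library values of the remaining members and of Cpt1b, Ppargc1a, Pdk4, Angptl4 and the markers were added after they were seen. Intervals are exact binomial and cover counting error only. Gene positions and exon lengths are from GENCODE vM21, promoter windows from RefSeq. Luminal cells were not analysed here.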

Additional observations from a re-analysis of the deposited data

How the results depend on the processing

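Alternatives were other scalings, pseudocounts, filters, tools, a fibroblast covariate, a replicate block and leaving out each library. The call count of 0 genes became 94 without a filter, 544 with the fibroblast covariate and 2 with DESeq2. Leaving out 1 library gave 0 to 904 calls, with 673 without duct 1, 904 without duct 2 and 0 without either tip, the lone library being assumed to vary like the other group. The cause was not tested. Members lower in both tip libraries numbered 1 as reported (beside 11.1% of all genes). They numbered 3 under TMM (beside 17.7%), 4 under median-ratio (beside 19.1%) and 3 under quantile scaling (beside 16.6%). With a library left out, where groups separate more easily, 2 to 4 members were lower, beside 20.3% to 28.3% of all genes. In those settings 23 to 27 members were higher, beside 38.3% to 48.1%. Overlap counts were not made for the pseudocount, replicate-block and fibroblast-covariate settings, nor for edgeR and DESeq2. The member median of 0.56 was 0.38 under TMM, 0.34 under median-ratio and 0.35 under quantile scaling, 0.40 with edgeR and 0.37 with DESeq2, and 0.44 to 0.72 with a library left out. The mitochondrial median was 0.37, 0.33, 0.34, 0.40 and 0.36 in the same order, and 0.40 to 0.73 with a library left out. Of 506 single-gene values under alternatives, 487 moved by less than the SE of that gene's difference. The filter and replicate-block settings return the same single-gene differences by construction, and a change of sign within the SE, as in Etfb, is included. The count is therefore not a measure of robustness. The title number as a replicate block gave 0 calls (1636 at an unadjusted p under 0.05) and the same member median of 0.56; deviations of same-numbered libraries had a correlation of 0.15 across genes, and with 2 pairs this does not show pairing. With 1439004 to 1742531 reads, members such as Etfb, Ppara, Ehhadh and Cpt2 rest on few reads.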
